A study of Rattus norvegicus with 6 samples.

Results

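The genes described are 10 members of the circadian clock and its output: Bmal1, Clock, Per1, Per2, Per3, Cry1, Nr1d1, Nr1d2, Dbp and Tef. They were chosen by name, as probes whose accession belongs to these symbols, and they are 10 of the 15284 genes with a symbol on the array. All 10 had a probe, with 22 probes between them out of 61657. The tissue was renal cortex. The animals were Sprague-Dawley males, 5 weeks old at purchase and kept on 12 h of light and 12 h of dark. The 3 control rats received corn oil for 4 weeks, and the other 3 received anthraquinone, a tricyclic quinone, at 1000 mg/kg/day for 4 weeks. Each rat was hybridised to its own 1-colour Agilent array. The clock time at which each animal was killed is not given in the sources used here, so every difference below is one between animals whose times of death are unknown.

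The mammalian clock is a feedback loop of transcription present in nearly every cell, kidney tubules included. The proteins BMAL1 and CLOCK pair and bind E-boxes in DNA, and so switch on the Per and Cry genes, whose proteins return to inhibit that pair. The same pair drives Nr1d1 and Nr1d2, which encode the repressors REV-ERB alpha and beta. These repressors in turn hold down Bmal1, Cry1 and other genes that carry a RORE, the site they share with the activating ROR receptors. Dbp and Tef encode output factors that bind D-boxes. In rodent kidney the transcripts of Bmal1 and of Dbp peak at opposite times of day, and the level of any one of them depends on the hour of sampling.

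Sites of these kinds lay in the RefSeq promoter windows (assembly GRCr8, 250 bases before to 50 after a start), which 9 of the 10 genes had, in 11 windows. The stretches shown hold matches to the letters of such motifs, read 5′ to 3′ on the gene's strand with the motif in capitals. Only the core letters of the RORE were searched, and a match in Nr1d1 to the E′-box named below is not shown. Both strands were searched for each motif, and no 2 of the matches overlap.
Bmal1 RORE core, chr1:176766301-176766330, plus strand: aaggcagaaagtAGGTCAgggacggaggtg
Nr1d2 RORE core, chr15:9954820-9954879, plus strand: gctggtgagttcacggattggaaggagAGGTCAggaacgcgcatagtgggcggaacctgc
Per2 E′-box, chr9:99497038-99497067, minus strand: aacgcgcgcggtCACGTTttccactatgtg
Per2 D-box, chr9:99497152-99497211, minus strand: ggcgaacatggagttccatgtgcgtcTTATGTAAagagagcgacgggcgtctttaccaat
Nr1d1 E-box, chr10:84229628-84229657, minus strand: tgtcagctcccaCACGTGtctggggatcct
Tef E-box, chr7:115206617-115206646, plus strand: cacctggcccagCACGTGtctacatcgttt
The RORE core AGGTCA began 15 bases before the start in Bmal1. It was present in 16.2% of all 33469 windows, so a match alone sets no gene apart. The E-box CACGTG was present in 6.42% of windows and in those of Nr1d1 and Tef. The E′-box CACGTT was present in 4.83% and in those of Per2 and Nr1d1. The D-box TTATGTAA was the rarest of those found, in 0.893% of windows, and lay in that of Per2. The other D-box form, TTACGTAA, was in 0.12% of windows and in 0 of the 11. A match describes the letters in the window and shows no binding.

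Values are log2 processed intensities minus the 75th percentile of their array, called log2 signal below, so 0 is the 75th percentile and a step of 1 is a doubling. They rank arrays for 1 probe and do not rank genes, since probes differ in brightness. The 75th percentile was 903 to 1191 intensity units on the corn oil arrays and 844 to 880 on the anthraquinone arrays, and 64.2 to 70.7% of probes lay well above background. Corn oil replicate 1 had a slide to itself and was scanned apart from the remaining 5, which came from 1 slide. On that shared slide the corn oil arrays lay in row 1 and the anthraquinone arrays in row 2. Treatment and row therefore cannot be told apart within it. All 7 proximal tubule markers sought, among them Lrp2 and Slc34a1, were well above background on all arrays. Of the adrenal cortex markers, Cyp11b1, Star, Mc2r and Nr5a1 lay well above background on 0 of the 6 arrays and Cyp11b2 on 1. The sixth, Cyp21a1, lay above it on all 6 and was lower with anthraquinone without overlap, by a log2 difference of -0.45 (limma adjusted p = 0.193). All 4 measured red cell genes were higher with anthraquinone, against 51.6% of all entries. Their summed linear levels were 655 to 833 in corn oil and 1008 to 1350 in anthraquinone. Of the 6 measured collecting duct principal cell markers 5 were lower, 3 of them without overlap, against 10.2% of all entries lower without overlap. The other, Aqp3, was higher without overlap, by a log2 difference of 0.46 (limma adjusted p = 0.191). The summed levels of the 6 were 164 to 192 in corn oil and 138 to 173 in anthraquinone, which overlap. The 2 measured distal convoluted tubule markers, Slc12a3 and Calb1, were named after their values were seen. They were lower without overlap, as were 10.2% of all entries, with log2 differences of -0.38 and -0.62. Their summed levels were 23.7 to 34.5 in corn oil and 18.7 to 21.6 in anthraquinone. The part of these cells in the values below was not tested, and in such bulk tissue fewer cells of a type and less RNA per cell cannot be told apart.

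None of the 10 clock genes passed the test between groups after adjustment over all 32663 gene entries. The smallest adjusted p was 0.201, for Clock (limma with Benjamini-Hochberg adjustment, threshold 0.05). Only 9 entries of the whole table passed, which is 0.0276%. At an unadjusted p under 0.05 there were 3 of the 10, against 17.1% of all entries. Clock was higher with anthraquinone, as were 9.47% of entries by that rule, and Per2 and Tef were lower, as were 7.65%. The groups did not overlap in 4 of the 10, against 25.2% of all entries. Clock and Nr1d2 lay higher without overlap, as did 15.0% of entries, and Per2 and Tef lower, as did 10.2%. The median log2 difference was -0.057 over the 10 and 0.0074 over all entries. The median size of the difference regardless of sign was 0.34 over the 10 and 0.14 over all entries, and the median SD within groups was 0.28 and 0.14. Both medians of the 10 were therefore larger than those of all entries, which does not hold for each gene. The SD within groups of Tef, Bmal1 and Clock was at the 12.8th, 29.0th and 29.8th percentile of all entries. The differences of Bmal1, Dbp and Per3 were smaller in size than the median entry.

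**Figure D1:**
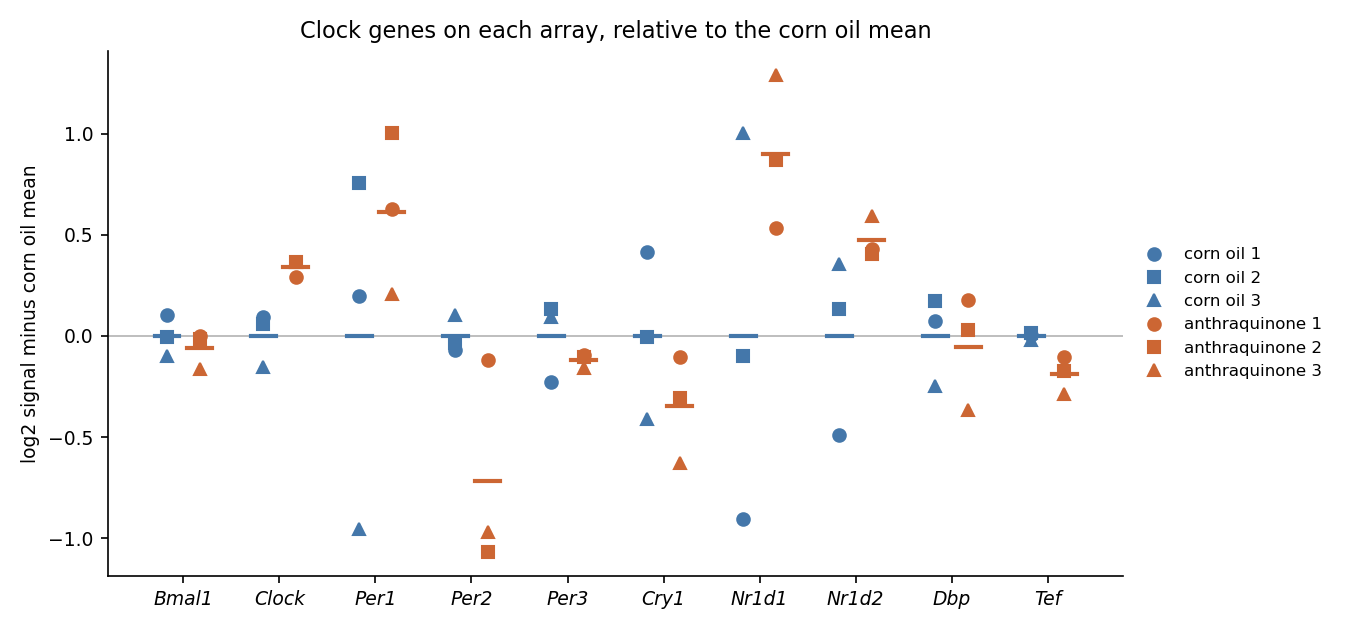
Log2 signal of each clock gene on each of the 6 arrays, minus the mean of the 3 corn oil arrays of that gene; points are arrays, short lines are group means. Nr1d1 and Per1 spread by 1.91 and 1.71 within corn oil alone, whereas Clock and Tef separate the groups with small spreads.

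Of the activators, Bmal1 was nearly level between the groups and Clock was higher with anthraquinone. In the order of replicates 1, 2 and 3, which is kept below, Bmal1 read 1.70, 1.59 and 1.49 on the corn oil arrays and 1.60, 1.58 and 1.43 on the anthraquinone arrays. The groups overlapped, and all 6 arrays lay within 0.27, a 1.21-fold range. The difference was -0.060 (95% confidence interval -0.28 to 0.16, limma adjusted p = 0.769), and a second, dimmer probe gave -0.079. With each array left out in turn it was -0.11 to -0.0077.

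Clock encodes the partner of BMAL1 in the activating pair. It read -1.50, -1.53 and -1.74 on the corn oil arrays and -1.30, -1.23 and -1.23 on the anthraquinone arrays. Every anthraquinone array lay above every corn oil array, with a gap of 0.20 between the nearest. The group means were -1.59 ± 0.13 and -1.25 ± 0.04 (SD, n = 3 each), a 1.27-fold difference of 0.34 ± 0.09 (SE, limma adjusted p = 0.201, unadjusted p = 0.00894). The other 2 probes of Clock also separated the groups, with differences of 0.22 ± 0.07 and 0.45 ± 0.11 (SE). Of the 6 genes with more than 1 tested probe, only Clock had every probe keep the groups apart. With each array left out in turn the difference was 0.26 to 0.39, and with the row on the slide as a block it was 0.25. In that row fit corn oil replicate 1 is the only control that shares a row with the treated animals. The value of 0.25 thus rests on a single control array.

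**Figure D2:**
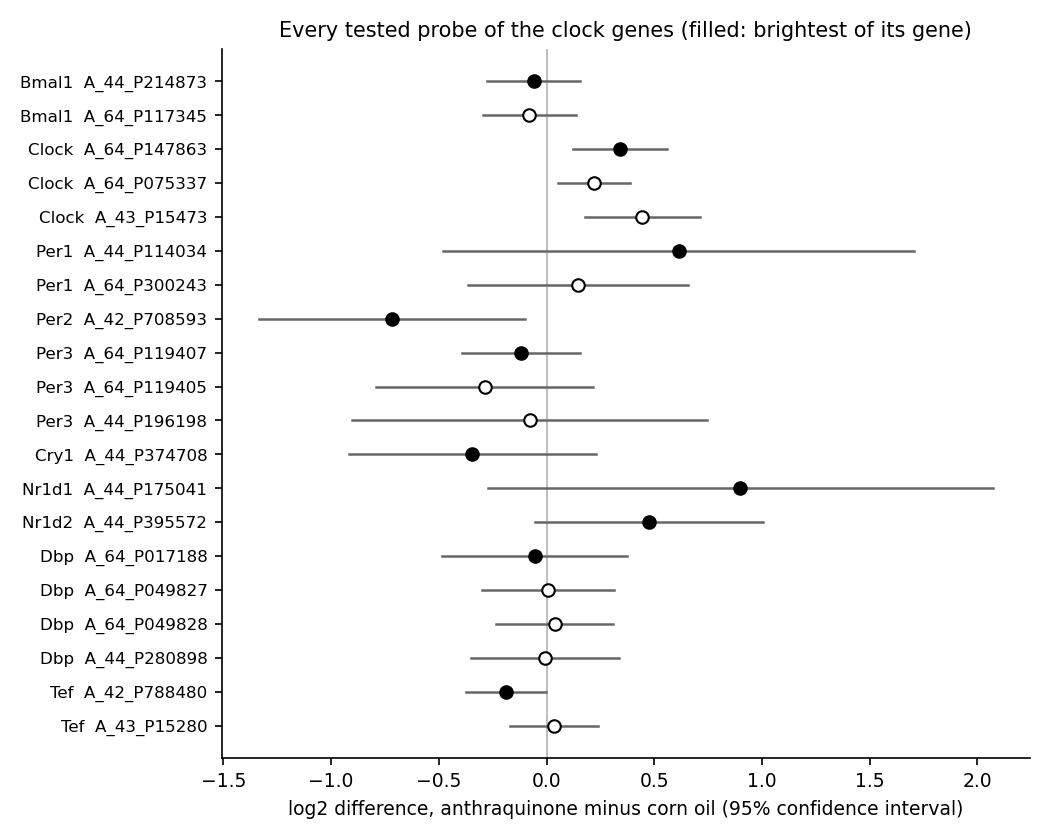
Log2 difference, anthraquinone minus corn oil, of the 20 tested probes of the clock genes, with 95% confidence intervals from limma; filled points mark the brightest probe of a gene. The 3 Clock probes lie to the right of 0, the 4 Dbp probes lie between -0.054 and 0.037, and the 2 Tef probes have opposite signs.

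The Period genes encode inhibitors of the BMAL1 and CLOCK pair, and their differences did not share a sign. Per2 was clearly lower on 2 of the 3 anthraquinone arrays. It read -0.58, -0.55 and -0.41 on the corn oil arrays and -0.63, -1.58 and -1.48 on the anthraquinone arrays. Anthraquinone replicate 1 lay only 0.047 below the nearest corn oil array, while the other two lay far lower. The difference was -0.72 ± 0.25 (SE, limma adjusted p = 0.248, unadjusted p = 0.0293), a 1.65-fold difference of means. Without anthraquinone replicate 1 it was -1.02 (limma adjusted p = 0.0743), the smallest adjusted p of any clock gene under any alternative tried. With the row on the slide as a block the difference was -0.65, which rests on corn oil replicate 1 as the only control in the row of the treated animals. Per2 had a single probe.

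Per1, which also responds directly to glucocorticoid hormones, varied most within corn oil after Nr1d1. It read -2.05, -1.49 and -3.20 on the corn oil arrays and -1.62, -1.24 and -2.04 on the anthraquinone arrays. Corn oil replicate 3 stood lowest, and corn oil replicate 2 lay above 2 of the anthraquinone arrays. The 3 corn oil animals covered a 3.28-fold range, and the difference between groups was 0.61 ± 0.45 (SE, limma adjusted p = 0.521). Leaving out corn oil replicate 3 gave 0.14, and leaving out corn oil replicate 2 gave 0.99. The dimmer probe gave 0.15 ± 0.21 (SE).

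Per3, a Period gene of lesser weight in the loop, read -1.68, -1.32 and -1.36 on the corn oil arrays and -1.55, -1.56 and -1.61 on the anthraquinone arrays, on its brightest probe. The groups overlapped, and corn oil replicate 1 was the lowest of all. The difference was -0.12 (95% confidence interval -0.39 to 0.15, limma adjusted p = 0.622). Leaving out corn oil replicates 1, 2 and 3 in turn gave -0.23, -0.053 and -0.073. Of the other 4 probes of Per3, 2 gave -0.29 and -0.078, and the other 2 lay well above background on 0 of the 6 arrays.

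Cry1, which encodes the strong late inhibitor of the loop, and Nr1d1 ranked the 6 animals in exactly opposite orders. Cry1 read 0.53, 0.11 and -0.29 on the corn oil arrays and 0.015, -0.19 and -0.51 on the anthraquinone arrays. Nr1d1 read -3.47, -2.66 and -1.56 on the corn oil arrays and -2.03, -1.69 and -1.27 on the anthraquinone arrays. Corn oil replicate 1 had the most Cry1 and the least Nr1d1, followed by corn oil replicate 2, anthraquinone replicates 1 and 2, corn oil replicate 3 and anthraquinone replicate 3. The groups were thus interleaved in both genes. Nr1d1 covered a 4.59-fold range over the 6 animals and a 3.76-fold range within corn oil alone. Its SD within groups, 0.73, was at the 98.2nd percentile of all entries, and that of Per1 at the 97.7th.

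The difference between groups was 0.90 ± 0.48 (SE, limma adjusted p = 0.389) for Nr1d1 and -0.35 ± 0.24 (SE, limma adjusted p = 0.491) for Cry1. Both depended on which corn oil animals were counted. Without corn oil replicate 1, which is also the comparison within the shared slide, they were 0.45 and -0.14. Without corn oil replicate 3 they were 1.40 and -0.55. Without anthraquinone replicate 3 that of Cry1 was -0.20. With the row on the slide as a block they were 1.80 and -0.76, and in that fit corn oil replicate 1 is the only control that shares a row with the treated animals.

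Nr1d2, the gene of the second REV-ERB repressor, was lowest on the same array as Nr1d1. It read -4.71, -4.09 and -3.87 on the corn oil arrays and -3.80, -3.82 and -3.63 on the anthraquinone arrays. The groups did not overlap, but the gap between them was 0.049 and they did overlap after the normexp background correction. The difference was 0.48 ± 0.22 (SE, limma adjusted p = 0.328), and it was 0.23 without corn oil replicate 1, 0.23 after normexp and 0.96 with the row as a block. Corn oil replicate 1 and anthraquinone replicate 3 were the extremes of Nr1d1, Nr1d2, Cry1 and Bmal1 alike, while the arrays between them ranked differently in Nr1d2 and Bmal1 from the order of Nr1d1.

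**Figure D3:**
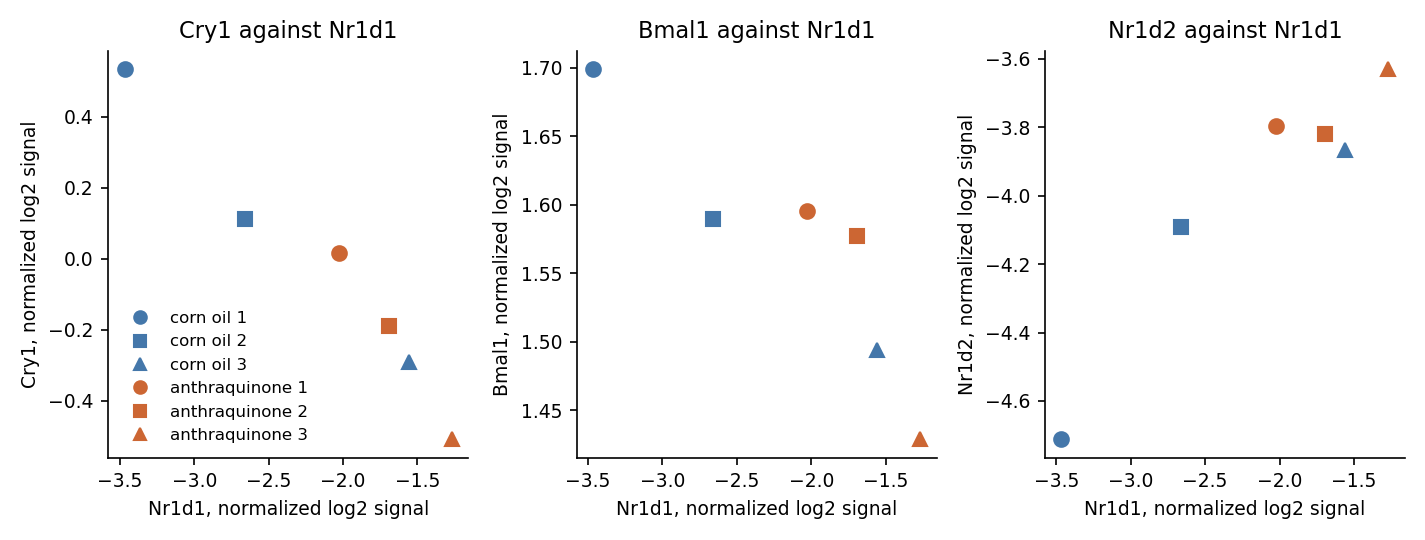
Log2 signal of Cry1, Bmal1 and Nr1d2 against that of Nr1d1 on the 6 arrays, 1 point per animal, with both axes on the normalized log2 scale. Cry1 runs from 0.53 to -0.51 as Nr1d1 runs from -3.47 to -1.27, with corn oil and anthraquinone arrays mixed along the line.

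Across the 6 animals Cry1 and Nr1d1 had a Pearson r of -0.979 (exact permutation p = 0.00139) and a Spearman rho of -1 (exact permutation p = 0.00278, two-sided). Adjusted over the 45 pairs of clock genes these p-values were 0.0625 and 0.125, so the pair did not pass. With 6 arrays the smallest exact p is 0.00139, and a single pair cannot go below 0.0625 after adjustment. Bmal1 and Cry1 had r = 0.960 (exact permutation p = 0.00417, adjusted 0.0938) and rho = 0.943 (exact permutation p = 0.0167, adjusted 0.188). Bmal1 and Nr1d1 had r = -0.898 (exact permutation p = 0.0111, adjusted 0.10) and rho = -0.943 (exact permutation p = 0.0167, adjusted 0.188). Nr1d1 and Nr1d2 had r = 0.948 (exact permutation p = 0.00833, adjusted 0.10) and rho = 0.771 (exact permutation p = 0.103, adjusted 0.330). Cry1 and Nr1d2 had r = -0.919 (exact permutation p = 0.00972, adjusted 0.10) and Bmal1 and Nr1d2 had r = -0.830 (exact permutation p = 0.0306, adjusted 0.203).

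Of the 45 pairs 10 had an unadjusted p under 0.05 for r, and 0 passed after adjustment. The share of such pairs among other entries was not computed, so the 10 have no background to be read against. The 6 pairs among Bmal1, Cry1, Nr1d1 and Nr1d2 were all among the 10 and were singled out after their values were seen. The seventh was Bmal1 and Dbp, with r = 0.823 (exact permutation p = 0.0458, adjusted 0.212) and rho = 0.829 (exact permutation p = 0.0583, adjusted 0.330). Without corn oil replicate 1 it had r = 0.977 and rho = 1, so these genes of known opposite phase ranked the 5 animals alike. The other 3 were pairs of genes whose groups did not overlap, and r was -0.818 for Clock and Per2 (exact permutation p = 0.0333, adjusted 0.203), 0.870 for Per2 and Tef (exact permutation p = 0.0361, adjusted 0.203) and -0.793 for Clock and Tef (exact permutation p = 0.0472, adjusted 0.212). With group means subtracted these were -0.469, 0.652 and -0.049.

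After leaving out the 2 arrays farthest from the median of the first gene of a pair, r was -0.938 for Cry1 and Nr1d1, 0.810 for Bmal1 and Cry1, -0.636 for Bmal1 and Nr1d1, 0.579 for Nr1d1 and Nr1d2, -0.561 for Cry1 and Nr1d2 and -0.143 for Bmal1 and Nr1d2. With each gene's group means subtracted, r was -0.977, 0.971, -0.918, 0.919, -0.901 and -0.856 for the same pairs. Over the 5 arrays of the shared slide it was -0.943, 0.925, -0.782, 0.884, -0.796 and -0.643. The pairs of Nr1d2 and that of Bmal1 with Nr1d1 thus rest in part on the 2 arrays left out. The shared order of Cry1 and Nr1d1 was thus present within the groups and without the array that stood alone on its slide.

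The output factor genes Dbp and Tef varied less between animals than Nr1d1. The SD within groups of Dbp, 0.25, was still at the 77.3rd percentile of all entries, and that of Tef, 0.067, at the 12.8th. Dbp read 3.13, 3.23 and 2.81 on the corn oil arrays and 3.23, 3.08 and 2.69 on the anthraquinone arrays, on its brightest probe. Replicate 3 was the lowest of each group on all 4 probes of Dbp, and the groups overlapped. The difference was -0.054 (95% confidence interval -0.48 to 0.38, limma adjusted p = 0.903), and the other 3 probes gave 0.0062, 0.037 and -0.0056. Dbp thus had no settled sign, and over the 6 animals it covered a 1.46-fold range while Nr1d1 covered 4.59-fold.

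Tef read 2.13, 2.14 and 2.10 on the corn oil arrays and 2.02, 1.95 and 1.84 on the anthraquinone arrays, on its brightest probe. The corn oil arrays lay within 0.039 of one another and all 3 anthraquinone arrays lay below them. The difference was -0.19 ± 0.08 (SE, limma adjusted p = 0.289, unadjusted p = 0.0482). With the row on the slide as a block it was -0.19, which rests on corn oil replicate 1 as the only control in the row of the treated animals. The second probe of Tef gave 0.034 ± 0.08 (SE) with overlapping groups, so the probes disagree in direction, and with the mean of both probes the difference was -0.077.

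**Figure D4:**
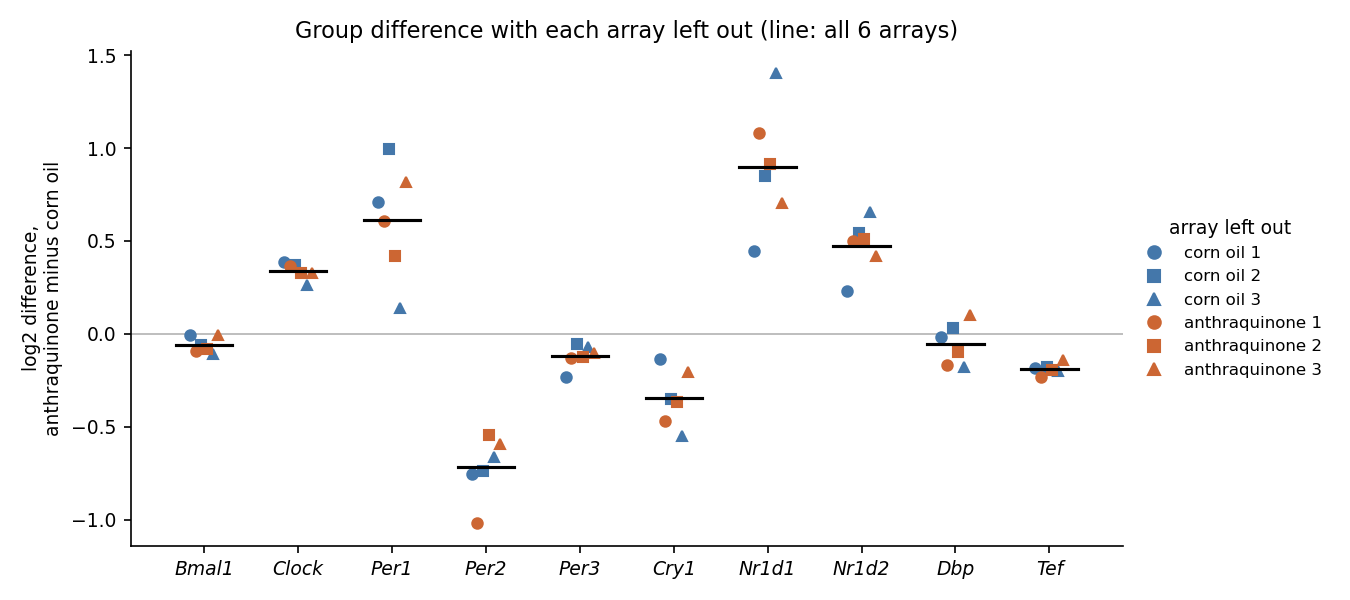
Log2 difference, anthraquinone minus corn oil, of each clock gene with each array left out in turn; the black line is the value with all 6 arrays. Clock stays between 0.26 and 0.39, whereas Nr1d1 runs from 0.45 to 1.40, Per1 from 0.14 to 0.99 and Per2 from -1.02 to -0.54.

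Other genes of the clock were read from lists chosen by role. Of 10 further clock factors 5 had a probe and 4 were measured, all with negative differences and a median of -0.17. Of all entries 51.6% had positive differences. At an unadjusted p under 0.05 there was 1 of the 4 (25%, against 17.1% of all entries). The groups did not overlap in 1 of the 4 (25%, against 25.2%). The largest difference was that of Bhlhe40, which encodes the repressor DEC1 that competes for E-boxes. Bhlhe40 was the gene in both counts. It read -1.43, -0.43 and -1.13 on the corn oil arrays and -1.53, -1.96 and -1.87 on the anthraquinone arrays, without overlap. The difference was -0.79 ± 0.27 (SE, limma adjusted p = 0.237, unadjusted p = 0.0246), -0.51 without corn oil replicate 2 and -0.35 with the row as a block.

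Nfil3, the gene of a repressor that competes with DBP and TEF for D-boxes, had a difference of -0.23 ± 0.10 (SE, limma adjusted p = 0.304). Cry2, the second cryptochrome gene, had -0.11, and Npas2, the gene of an alternative partner of BMAL1, had -0.061. The groups of Nfil3, Cry2 and Npas2 overlapped. With each array left out Cry2 ran from -0.20 to -0.024 and Npas2 from -0.11 to -0.031, and the median of the Npas2 probes gave -0.28. Ciart, whose product represses the BMAL1 and CLOCK pair, lay well above background on 0 of the 6 arrays.

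Of the 11 measured genes whose products modify clock proteins, 9 had positive differences (81.8%, against 51.6% of all entries), and the median was 0.14. At an unadjusted p under 0.05 there were 0, against 17.1% of all entries. The groups did not overlap in 3 of the 11 (27.3%, against 25.2%), the casein kinase genes Csnk1a1, Csnk2a1 and Csnk2b, with differences of 0.14, 0.21 and 0.15. Csnk1a1 and Csnk2b were named after their values were seen. The largest difference was 0.34 ± 0.17 (SE, limma adjusted p = 0.364), for Usp2, the gene of a deubiquitinase whose transcript is itself rhythmic. That of Usp2 was 0.18 without anthraquinone replicate 2 and 0.62 on its most variable probe. The AMP-activated kinase gene Prkaa1 had 0.19, and 0.12 to 0.30 with each array left out.

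Among 19 measured genes known to follow the clock or its hormonal cues, 13 had positive differences (68.4%, against 51.6% of all entries) with a median of 0.18. An unadjusted p under 0.05 was found in 2, both upward, which is 10.5% against 17.1% of all entries. They were Por, the gene of cytochrome P450 reductase, and the tetraspanin gene Tspan4, which was named after its values were seen. Por read 3.14, 2.94 and 3.02 on the corn oil arrays and 3.09, 3.93 and 3.79 on the anthraquinone arrays. Anthraquinone replicate 1 lay among the corn oil arrays and the other two lay apart. The difference was 0.57 ± 0.22 (SE, limma adjusted p = 0.278) for Por and 0.50 ± 0.16 (SE, limma adjusted p = 0.234) for Tspan4.

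**Figure D5:**
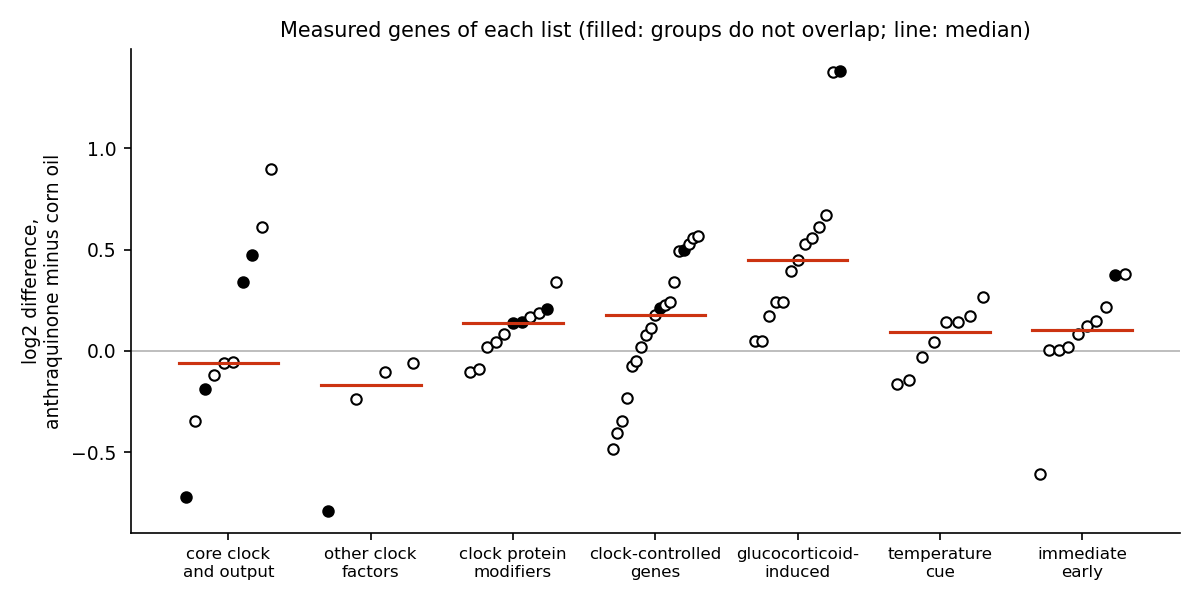
Log2 difference, anthraquinone minus corn oil, of every measured gene of 7 lists, 1 point per gene; filled points are genes whose groups do not overlap and red lines are medians. The clock genes spread from -0.72 to 0.90 around a median of -0.057, and all 13 glucocorticoid-induced genes lie above 0.

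The genes with the profile nearest to that of Bmal1, by Euclidean distance of centred log2 signals over the 6 arrays among 11239 other named genes above background on all of them, were Plgrkt, Eny2, Rb1cc1, C2cd2 and Pigh, at 0.041 to 0.055. Those nearest to Dbp were Lzts1, Kics2, Ube2h, Cldn10 and Gins1, at 0.14 to 0.21. No clock gene was among them. Bmal1 was the nearest clock gene to Dbp, at rank 280, although the 2 transcripts are known for opposite phases. A flat profile finds many near neighbours, so these ranks describe small variation as much as likeness.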

How the data were processed

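The authors deposited scanner intensity per spot, and per the file headers the software was Agilent Feature Extraction 10.7.1.1. The processed intensity had been corrected for background and spatial trend, with no scaling between arrays. The authors' value table of intensity matched it divided by each array's 75th percentile within 0.01 log2 for 90.7 to 97.0% of probes. Column medians were 0.109 to 0.114, and no header states that scale.

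Log2 processed intensity minus the array's 75th percentile was used, without the 2 to 13 flagged spots per array. The test took the 41310 probes that every array of the corn oil group, or every array of the anthraquinone group, found well above background. Accessions were matched to RefSeq symbols of GRCr8 (27460 of 61657 probes), for names only, since the array was designed on another assembly. The brightest probe stood for a gene, and unnamed probes stood alone. Of the 22 clock probes 20 were tested, in all 10 genes. Groups and replicate numbers came from the sample titles, and the design text calls the replicates biological.

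The linear model held the group alone and was fitted with limma 3.58.1 (lmFit, eBayes) under R 4.3.3, and it was checked on simulated data. The number of arrays limits the precision, and an exact permutation test of 3 against 3 cannot go below p = 0.1. The members and lists were chosen with earlier results of these data known. Named genes are every member and further clock factor, and the 3 largest differences of each other list, and genes named after their values were seen are marked as such. Replicate numbers were not treated as pairs in the main fit. Over all entries, same-numbered arrays were close to uncorrelated once group means were removed. The alternatives were other scalings, background corrections, filters, probe choices, variance models and blocks, the value table, and each array left out.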

Additional observations from a re-analysis of the deposited data

How the results depend on the processing

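Over 21 alternatives, 0 of 210 values of the 10 clock genes passed the adjusted threshold in limma, and 4 changed sign. Among the 21, the slide as a block gave the same differences as leaving out corn oil replicate 1, which had its slide to itself. These are therefore not separate checks. Per3 was 0.11 with the row as a block. Dbp was 0.022 with the median of probes and ran from -0.18 to 0.10 with each array left out. Of the 19 other named genes, Cry2 alone changed sign, at 0.089 with the row as a block. The count of clock genes at an unadjusted p under 0.05 was 3, and 1 to 4 with each array left out. It was 1 when the array dropped was the corn oil replicate 2, or either of the anthraquinone replicates 2 and 3. Over all 32663 entries the same count was 5594, and 4050 to 6005 with each array left out. The count of clock genes whose groups do not overlap was 4, and 3 to 6 under the alternatives. The 6 came without corn oil replicate 3, where the share of all entries without overlap was 35.7% against 25.2%.

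The count of all entries past the adjusted threshold was 9. It was 17 with normexp on median spot signals, chosen after seeing that the files hold no means, 81 with the trended robust variance model, and 6611 with no filter on dim probes. It was 2 with the slide as a block, 1 with the row as a block, and 1 to 25 with each array left out. Dropping corn oil replicate 3 gave 25, dropping anthraquinone replicate 3 gave 4, dropping corn oil replicate 1 gave 2, and each of the other arrays gave 1. Median scaling gave 5 higher and 1 lower, against 5 and 4. The causes were not tested. With the replicate number as a block 1 entry passed. In that fit 6 of the 10 clock genes had an unadjusted p under 0.05, against 4640 of all 32663 entries. Same-numbered arrays correlated over all entries at 0.028, -0.059 and -0.0074 after group means were removed. Some clock genes did follow the replicate number, as Bmal1 and Cry1 fell and Nr1d1 rose from replicate 1 to 3 in both groups. Whether same-numbered animals shared a time of death was not tested. The r of Cry1 and Nr1d1 was -0.99 to -0.94 over 15 alternatives, that of Bmal1 and Nr1d1 -0.95 to -0.78, and that of Bmal1 and Cry1 0.82 to 0.99.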

Other observations

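Genes that glucocorticoid hormones induce, of which Per1 is one, were all higher on average with anthraquinone, in 13 of 13 measured (against 51.6% of all entries) and with a median log2 difference of 0.45, against 0.0074 over all entries. Corn oil replicate 3 was the lowest control in Dusp1, Nfkbia and Sult1a1, which were named after their values were seen. Without that array their differences were negative. Of the 13, 0 passed over all entries in limma and 1 had an unadjusted p under 0.05, which is 7.69% against 17.1% of all entries. The groups did not overlap in 1 of the 13 (7.69%, against 25.2% of all entries). Both counts were of Fkbp5, which encodes a co-chaperone of the glucocorticoid receptor. Fkbp5 read 1.66, 1.58 and 1.69 on the corn oil arrays and 2.30, 3.70 and 3.07 on the anthraquinone arrays. The corn oil arrays lay close together, every anthraquinone array lay above them, and anthraquinone replicate 1 was the lowest of its group. The difference was 1.38 ± 0.33 (SE, limma adjusted p = 0.191). Zbtb16, a zinc finger gene strongly induced by these hormones, read -4.90, -5.28 and -4.07 on the corn oil arrays and -4.88, -2.44 and -2.81 on the anthraquinone arrays, with anthraquinone replicate 1 among the controls. Its difference of 1.38 was 2.13 without that array, 0.91 without anthraquinone replicate 2 and 0.67 after normexp. Cebpd, a transcription factor gene, read 1.66, 2.12 and 1.01 on the corn oil arrays and 2.11, 2.57 and 2.11 on the anthraquinone arrays, and Sgk1, a kinase gene of sodium transport, read 2.90, 3.40 and 2.10 and then 3.48, 3.74 and 2.77. Corn oil replicate 3 was lowest and anthraquinone replicate 2 highest in both, as in Per1. Without corn oil replicate 3 the differences were 0.38 for Cebpd and 0.18 for Sgk1, against 0.67 and 0.53. Tsc22d3, the gene of the glucocorticoid-induced leucine zipper, read 2.29, 1.99 and 1.24 on the corn oil arrays and 2.51, 2.54 and 2.14 on the anthraquinone arrays, with the same lowest and highest arrays, and its difference of 0.56 was 0.26 without corn oil replicate 3.

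Of 8 measured temperature-responsive genes, a class that follows body temperature cycles, 5 had positive differences (62.5%, against 51.6% of all entries), with a median of 0.093. At an unadjusted limma p under 0.05 there were 0, against 17.1% of all entries. The cold-inducible Cirbp had a difference of 0.27, which was 0.11 without anthraquinone replicate 2, and the heat shock genes Hspb1 and Hspa1a had 0.17 and -0.16. Of 10 measured immediate early genes, which respond within minutes to stimulation or handling, 9 had positive differences (90%, against 51.6% of all entries) with a median of 0.10, and 1 had an unadjusted p under 0.05, which is 10% against 17.1%. The groups did not overlap in 1 of the 10 (10%, against 25.2% of all entries). Regardless of sign the median size of the difference was 0.14, as it was over all entries. Junb was the gene in both counts, with 0.38 ± 0.14 (SE, limma adjusted p = 0.255). The largest difference was that of Fos, -0.61 ± 0.33 (SE, limma adjusted p = 0.399), and Atf3 had 0.38 ± 0.34 (SE, limma adjusted p = 0.598). That of Fos was -0.32 without anthraquinone replicate 1, -0.34 without corn oil replicate 2 and -0.25 after normexp. Leaving out anthraquinone replicate 3 gave 0.14 for Atf3, and leaving out corn oil replicates 1, 2 and 3 in turn gave 0.24, 0.71 and 0.19.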
